A study of Homo sapiens with 3 samples.

Results

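The genes that write and erase methyl groups on histone lysines were followed through a knockdown of USP16 in PC3 cells. They were taken by symbol: KMT, KDM or SETD with a number and an optional further letter or number, plus EHMT1, EHMT2, SUV39H1, SUV39H2, NSD1, NSD2, NSD3, DOT1L, ASH1L, PHF8, SMYD2, SMYD3 and SMYD5, with KDM5D left out. This gave 49 of the 59719 gene names in the table, 29 methyltransferases and relatives and 20 demethylases, and 46 of them averaged 1 TPM or more, as did 13637 genes in all, which are the tested genes below. PC3 is an androgen-independent prostate cancer cell line, and RNA-seq was done on 3 libraries of it. There was 1 from control cells (shCON) and 1 for each of 2 hairpins against USP16 (shUSP16#1 and shUSP16#2). The study calls shCON a vector control in its xenograft work, and the submitters also label this library RFP. What the control vector carried is not given in the sources used here. Hairpins were cloned into the pLKO.1 vector and carried stably by cells selected with puromycin. The sources used here do not say how long after selection the RNA was taken or whether the cells were clones. The study asked how USP16, a deubiquitinase known to act on histone H2A and studied here for c-Myc, bears on the growth of prostate cancer cells.

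Histone lysine methyltransferases, most of them with a catalytic SET domain, transfer methyl groups from S-adenosylmethionine to defined lysines of the histone tails or, for DOT1L, of the nucleosome core. Demethylases of the LSD1 type (KDM1) remove them with FAD, and those with a JmjC domain need iron and 2-oxoglutarate. Methylation of H3K4 marks promoters and enhancers of active genes, H3K36 and H3K79 methylation lies over transcribed genes, and H3K9, H3K27 and H4K20 methylation is known from silenced or compacted chromatin, and several of these enzymes are altered in prostate and other cancers.

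Levels are in TPM, a unit that divides the reads of a gene by its transcript length and scales each library to a common sum, so that genes can be compared within a library. Every difference below is a hairpin library minus shCON after taking log2(TPM + 1), which makes changes of weakly expressed genes look smaller than they are, and where a single value stands for a gene it is the mean of both hairpins. With 1 library per condition there is no spread between replicates, no test and no p-value for any difference, and both hairpins are set against the same shCON library. In bulk RNA, fewer cells of a kind and less RNA per cell cannot be told apart. USP16 itself, the targeted gene, had 19.9 TPM in shCON and 3.50 and 1.08 TPM with shUSP16#1 and shUSP16#2, differences of -2.22 and -3.33. The hairpins address separate sites near the 3′ end of its message, shUSP16#1 the untranslated region after the coding sequence at chr21:29054296-29054316 and shUSP16#2 an exon junction in the coding sequence between positions 29053942 and 29054069 of the same chromosome (GRCh38, forward strand), and their sense sequences are shown because each member's values under one can be set beside those under the other.
shUSP16#1: gccagaagaaatcatgtttat
shUSP16#2: cggtgatattccacaagattt

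The epithelial keratins KRT8 and KRT18 were between 622 and 947 TPM in all 3 libraries. In shCON, shUSP16#1 and shUSP16#2, CD44 was at 1005, 606 and 707 TPM, and EPCAM was at 273.5, 165.6 and 135.9 TPM. KLK3, the PSA gene, was listed at 0 in all libraries, and TMPRSS2 was at 1.13, 3.68 and 1.63 TPM. The leukocyte genes PTPRC and CD3E were at most 0.14 TPM, the endothelial gene PECAM1 was at most 1.28 TPM, and the fibroblast gene COL1A1 was at 4.19, 10.7 and 4.78 TPM. MKI67, a marker of dividing cells, was at 29.6, 12.1 and 8.78 TPM, and its part in the values of the members was not tested. Protein-coding genes held 93.2%, 95.3% and 88.7% of all TPM. The tested genes as a whole had median differences of -0.17 (shUSP16#1) and -0.37 (shUSP16#2), so differences are also given relative to these.

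Most members were lower after USP16 knockdown. Of the 46 tested members, 35 (76.1%) were lower under both hairpins, 5 (10.9%) were higher under both, a direction that depended on the treatment of the GC trend described below, and 6 differed in direction between the hairpins or were equal under 1 of them, against 57.2% of all tested genes lower under both and 24.5% higher under both. Their median difference was -0.41 under shUSP16#1 and -0.61 under shUSP16#2, and relative to the median of the tested genes it was -0.24 under each. Lower than that median under both hairpins were 29 members (63.0%), against 41.7% of the tested genes. Methyltransferases and demethylases gave close values, with 22 of 29 and 13 of 17 lower under both and median mean differences of -0.55 and -0.50.

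**Figure D1:**
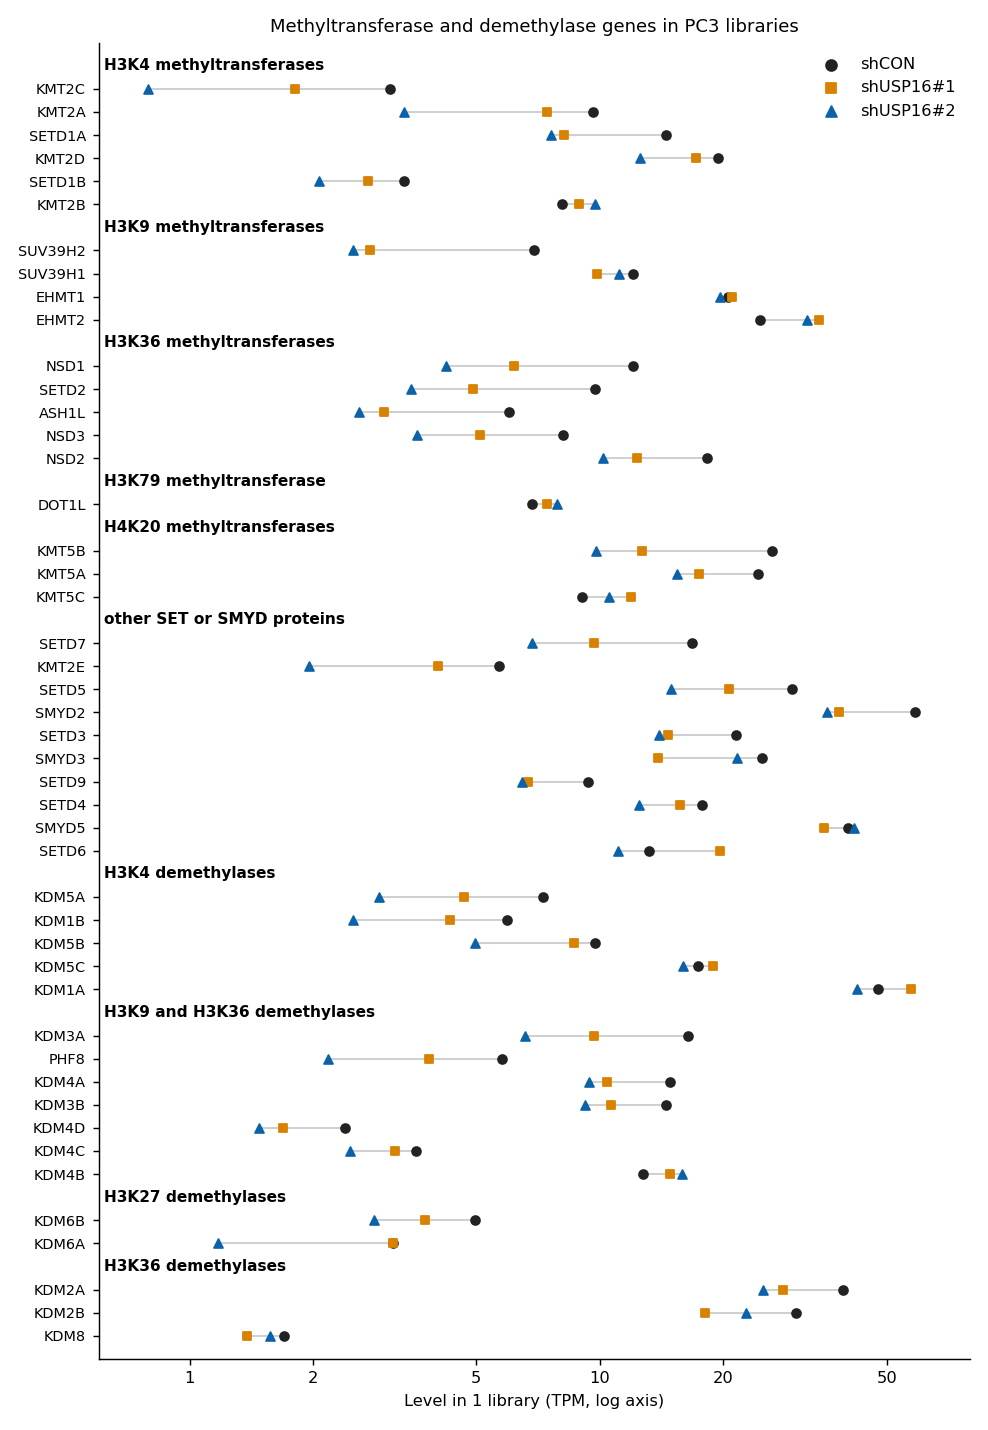
Level of each tested methyltransferase or demethylase gene in TPM on a log axis, 1 row per gene grouped by the histone lysine acted on, with a black circle for shCON, an orange square for shUSP16#1 and a blue triangle for shUSP16#2, and 1 library behind each point. Most rows have the black circle at the right end, all 5 H3K36 methyltransferases among them, while KMT2B, EHMT2, DOT1L, KMT5C and KDM4B have it at the left end.

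Most of the differences were below 2-fold on the log2(TPM + 1) scale, on which the counts here were made. SUV39H2 was the only member at least 2-fold lower under both hairpins (2.17%, against 4.6% of the tested genes), and no member was at least 2-fold higher under both (against 1.14%) or under either (against 4.5%). Under shUSP16#1 alone SUV39H2 was again the only one at least 2-fold lower (5.79% of the tested genes were). Under shUSP16#2 alone 11 members (23.9%, against 19.5%) were at least 2-fold lower, namely KDM3A, KDM5A, KMT2A, KMT2C, KMT2E, KMT5B, NSD1, PHF8, SETD2, SETD7 and SUV39H2. The share of members past 2-fold on this scale thus lay below or near that of all genes. The added 1 TPM bears on these counts. As plain ratios to shCON, KMT5B (0.48 and 0.37) and ASH1L (0.49 and 0.43) were also more than 2-fold lower under both hairpins. KDM6A (0.37), KDM1B (0.42) and NSD3 (0.44) were so under shUSP16#2 only. The share of all genes by plain ratios is not given here. The level was lower under shUSP16#2 than under shUSP16#1 on the log2 scale in 38 members (82.6%, against 73.4% of the tested genes), with a median gap of -0.24.

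**Figure D2:**
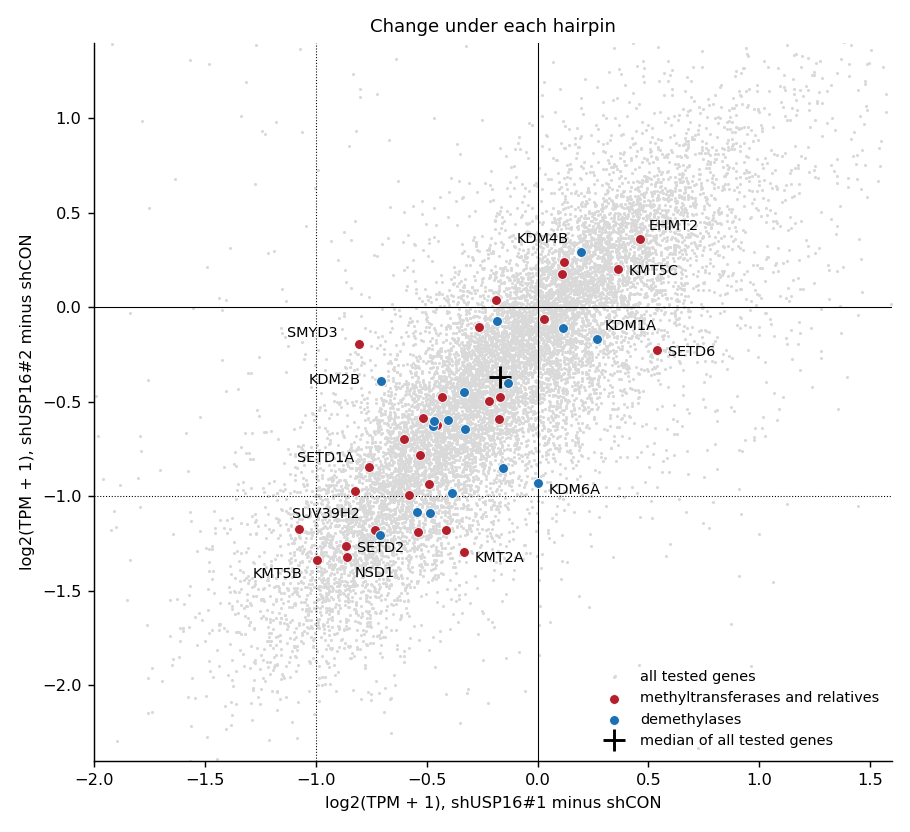
Difference from shCON under shUSP16#2 (vertical axis) against shUSP16#1 (horizontal axis), both as log2(TPM + 1), for the tested genes in grey, methyltransferases and relatives in red and demethylases in blue, with a cross at the median of all tested genes, dotted lines at a 2-fold fall and 373 genes outside the axes. Both axes share the shCON library. Most members sit at the lower left, SUV39H2 alone beyond both dotted lines, and SETD6, KDM1A, KDM5C and EHMT1 were above 0 under shUSP16#1 only.

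With no trend removed, the H3K36 methyltransferases were the class with the lowest median. They were also the only class of more than 3 genes in which every member was lower under both hairpins. Their median was no longer the lowest once the GC trend, or the GC and length trends, were removed, as given below. SETD2, which places the trimethyl mark behind elongating RNA polymerase II, was at 9.72 TPM with shCON and at 4.90 and 3.46 TPM with shUSP16#1 and shUSP16#2, differences of -0.86 and -1.27. NSD1, which dimethylates H3K36, was at 12.02, 6.18 and 4.21 TPM in the same order (-0.86 and -1.32). ASH1L, the Trithorax-group relative of these enzymes, was at 6.02, 2.97 and 2.58 TPM (-0.82 and -0.97). In all 5 genes of the class the shUSP16#2 library had the lowest level and shCON the highest, an order that many other members share. NSD3 was at 8.13, 5.10 and 3.58 TPM (-0.58 and -0.995, the latter just short of 2-fold on the log2(TPM + 1) scale only). NSD2, known for its overexpression in myeloma, was at 18.2, 12.3 and 10.2 TPM (-0.53 and -0.78). Together the 5 genes summed to 54.1 TPM in shCON and to 31.5 and 24.01 TPM under the hairpins, 0.58 and 0.44 of the shCON sum. The class had median differences of -0.82 and -0.995, which were -0.65 and -0.63 once the median of the tested genes was taken off. These are transcripts poor in G and C (median GC content of the class 44.0%) and long (median 10768 bases against 2651 for the tested genes), and both properties went with lower values over all genes, as given below with the values that remain when the trends are removed; their part in the differences was not tested.

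The H3K4 methyltransferases of the COMPASS family fell into unlike pairs. KMT2A (MLL1), the mixed-lineage leukaemia gene, was at 9.61, 7.42 and 3.33 TPM in shCON, shUSP16#1 and shUSP16#2 (-0.33 and -1.29), so most of its difference came from shUSP16#2. Its closest relative KMT2B (MLL2) was at 8.08, 8.87 and 9.72 TPM (0.12 and 0.24), the only member of the class that was higher under both, although its mean was -0.33 with the GC trend removed and -0.06 with centring as well. KMT2A was therefore above KMT2B in shCON and below it under both hairpins. KMT2C, which monomethylates H3K4 at enhancers, was at 3.08, 1.81 and 0.79 TPM (-0.54 and -1.19), and KMT2D, the other enzyme of enhancers, was at 19.4, 17.1 and 12.6 TPM (-0.18 and -0.59). SETD1A, a writer of H3K4 trimethylation at promoters, was at 14.5, 8.17 and 7.62 TPM (-0.76 and -0.85). SETD1B was at 3.33, 2.72 and 2.07 TPM (-0.22 and -0.50). The summed level of the 6 genes was 58.1, 46.1 and 36.1 TPM.

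The H3K9 methyltransferases had a median mean difference of -0.10 as a class, which was -0.39 with the GC trend removed and -0.11 with centring as well. SUV39H2, which trimethylates H3K9 in heterochromatin, was at 6.90, 2.75 and 2.50 TPM (-1.07 and -1.17), with both hairpin libraries well below shCON and close to each other. Its paralog SUV39H1 was at 12.03, 9.86 and 11.1 TPM (-0.26 and -0.10). EHMT2 (G9a), which dimethylates H3K9 in euchromatin, was at 24.6, 34.3 and 32.0 TPM (0.46 and 0.36), the highest mean difference of all members on this scale (with the GC trend removed KDM1A, at 0.06, was above EHMT2), and EHMT1 (GLP), its partner in a heterodimer, was at 20.5, 21.0 and 19.6 TPM (0.03 and -0.06). The sum of the 4 genes was 64.1, 67.9 and 65.2 TPM, so that the lower SUV39H2 was offset in the sum by EHMT2. Among all members EHMT2 was at rank 9 by level in shCON and at rank 4 under each hairpin.

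Of the H4K20 enzymes, KMT5B (SUV420H1), which adds the further methyl groups after the initial one, was at 26.2, 12.7 and 9.76 TPM (-0.99 and -1.34) and had the lowest mean difference of all members, -1.17, while the fall under shUSP16#1 stopped just short of 2-fold on this scale. KMT5C (SUV420H2), which does the same reaction, was at 9.04, 11.9 and 10.54 TPM (0.36 and 0.20). KMT5A (SET8), the only monomethyltransferase of H4K20, was at 24.3, 17.5 and 15.4 TPM (-0.45 and -0.62). KMT5B went from rank 7 among the members in shCON to ranks 17 and 20, and the ratio of KMT5B to KMT5C went from 2.90 in shCON to 1.06 and 0.93. DOT1L, the sole H3K79 methyltransferase known in mammals, was at 6.83, 7.45 and 7.86 TPM (0.11 and 0.18).

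The other SET and SMYD proteins, many of which act on substrates other than histones, gave the largest summed level, 237.3 TPM with shCON and 178.2 and 166.5 TPM with the hairpins. SETD7, known to methylate H3K4 in vitro and several transcription factors, was at 16.7, 9.69 and 6.83 TPM (-0.73 and -1.18) and had the lowest mean in the class. KMT2E (MLL5), a PHD and SET protein with no methyltransferase activity established, was at 5.69, 4.03 and 1.95 TPM (-0.41 and -1.18), and its relative SETD5 was at 29.4, 20.7 and 14.9 TPM (-0.49 and -0.94). SMYD2, which methylates p53 and RB among others, was the member with the highest level in shCON, at 58.6 TPM, and was at 38.2 and 35.8 TPM under the hairpins (-0.60 and -0.70). The hairpins did not go together in 3 genes of this class. SMYD3 was at 24.9, 13.8 and 21.6 TPM (-0.81 and -0.19), the widest gap in favour of shUSP16#2 among the members. SETD6, which methylates the NF-kappaB subunit RelA, was at 13.2, 19.6 and 11.1 TPM (0.54 and -0.23), and SMYD5 was at 40.3, 35.2 and 41.5 TPM (-0.19 and 0.04). SETD3, the actin histidine methyltransferase, SETD4 and SETD9 were lower under both, with differences between -0.17 and -0.59.

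Among the H3K4 demethylases, KDM1A (LSD1) was the most abundant demethylase, at 47.5, 57.5 and 42.2 TPM (0.27 and -0.17), and under both hairpins it was the most abundant of all members. Its paralog KDM1B (LSD2) was at 5.92, 4.30 and 2.50 TPM (-0.38 and -0.98). Of the KDM5 enzymes, which remove di- and trimethylation, KDM5A was at 7.26, 4.66 and 2.90 TPM (-0.55 and -1.08) and KDM5B, often high in prostate cancer, at 9.73, 8.63 and 4.96 TPM (-0.16 and -0.85). KDM5C was at 17.4, 18.9 and 16.0 TPM (0.12 and -0.11), so the X-linked member was the one with the smallest differences. The summed level of the class was above shCON under shUSP16#1 (87.8 and 93.9 TPM) and below it under shUSP16#2 (68.6 TPM). The ratio of the summed H3K4 methyltransferases to the summed H3K4 demethylases was 0.66 in shCON and 0.49 and 0.53 under the hairpins, and without KDM1A it was 1.44, 1.26 and 1.37.

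The class of demethylases that act on H3K9, H3K36 or both was lower under both hairpins in 6 of the 7 tested. KDM3A, a demethylase of mono- and dimethylated H3K9, was at 16.4, 9.65 and 6.55 TPM (-0.71 and -1.21), and its paralog KDM3B was at 14.5, 10.7 and 9.20 TPM (-0.41 and -0.60). PHF8, which removes dimethylation of H3K9 and monomethylation of H4K20, was at 5.77, 3.83 and 2.18 TPM (-0.49 and -1.09). KDM4B, which removes H3K9 trimethylation, was the exception, at 12.8, 14.8 and 15.9 TPM (0.20 and 0.29), the only demethylase higher under both. KDM4A was at 14.8, 10.4 and 9.42 TPM (-0.47 and -0.60), whereas KDM4C (3.56, 3.16 and 2.46 TPM) and KDM4D (2.39, 1.69 and 1.48 TPM) were low throughout. KDM4B thus passed KDM4A, having been below it in shCON. KDM7A stayed under the minimum (0.44, 0.28 and 0.55 TPM), and KDM4E and KDM4F were listed at 0 in all 3 libraries.

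The H3K27 demethylases were low in these cells. KDM6A (UTX) was at 3.13 TPM in shCON, at the same 3.13 under shUSP16#1 and at 1.17 under shUSP16#2 (0 and -0.93), while KDM6B (JMJD3) was at 4.96, 3.75 and 2.82 TPM (-0.33 and -0.64). Of the demethylases of H3K36, KDM2A was at 39.2, 27.9 and 24.98 TPM (-0.47 and -0.63). KDM2B, which also recruits a Polycomb complex that ubiquitinates histone H2A at CpG islands and so acts on the mark that USP16 removes, was at 29.99, 18.0 and 22.7 TPM (-0.71 and -0.39), and it was among the few members that were lower under shUSP16#1 than under shUSP16#2. KDM8 was at 1.70, 1.38 and 1.57 TPM (-0.18 and -0.07).

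**Figure D3:**
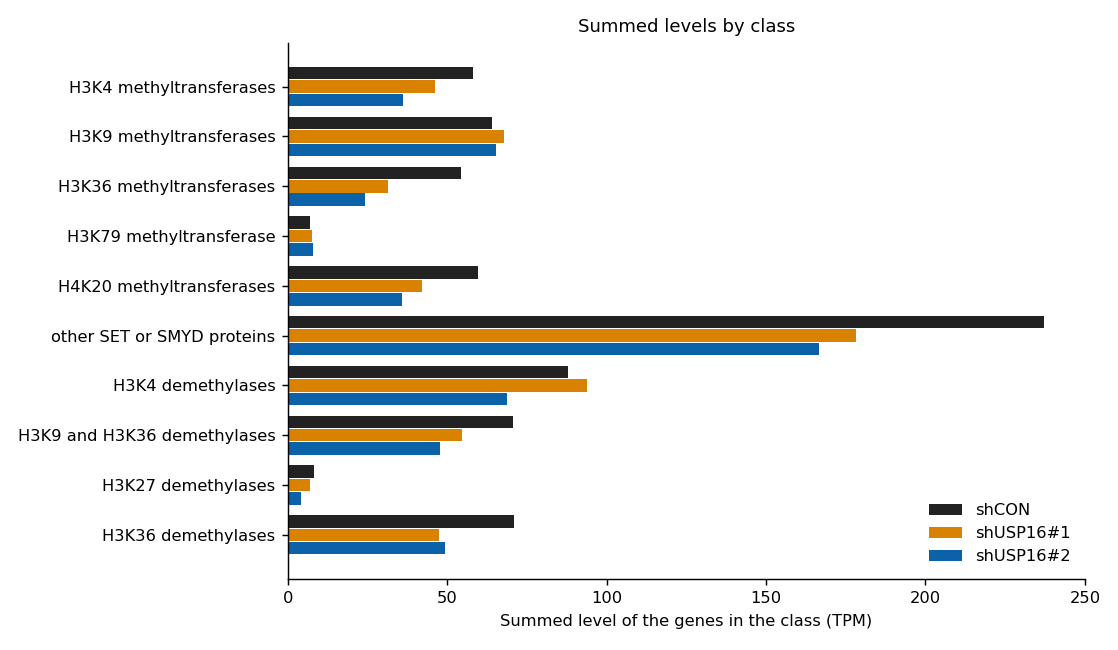
Summed TPM of the genes of each class (horizontal axis, from 0) in shCON (black), shUSP16#1 (orange) and shUSP16#2 (blue), with 1 library per bar and genes under the minimum included. The H3K36 methyltransferases go from 54.1 to 31.5 and 24.01 TPM, while the H3K9 methyltransferases stay between 64.1 and 67.9 TPM.

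Paralogs that do the same reaction differed along the GC content of their transcripts. In 8 of 10 pairs the member with the higher GC content had the higher difference under both hairpins, and in 10 of 10 it did so under shUSP16#2. The widest gap was between KMT5B (GC content 40.7%, mean difference -1.17) and KMT5C (66.1%, 0.28), followed by KMT2A (46.9%, -0.81) and KMT2B (63.5%, 0.18), and by SUV39H2 (41.1%, -1.12) and SUV39H1 (57.6%, -0.18). The exceptions under shUSP16#1 were KDM2A (51.6%) with KDM2B (55.3%) and KDM6A (43.5%) with KDM6B (62.4%). The ratio of KMT2A to KMT2B was 1.19 in shCON and 0.84 and 0.34 under the hairpins, and that of SUV39H2 to SUV39H1 was 0.57, 0.28 and 0.22. With the GC trend of all genes removed, the member of higher GC content still had the higher mean in 7 of 10 pairs, but by less, 0.41 for KMT5C over KMT5B against 1.45 before, 0.24 for KMT2B over KMT2A against 0.99, and 0.19 for SUV39H1 over SUV39H2 against 0.94. The gap also shrank for KDM3B over KDM3A, from 0.45 to 0.09, and for EHMT2 over EHMT1, from 0.43 to 0.29. The order turned for KMT2D over KMT2C, from 0.48 to -0.15, and for KDM2B over KDM2A, from 0.003 to -0.13. Little changed for SETD1B over SETD1A, 0.45 before and 0.44 after, and for KDM1A over KDM1B, 0.73 and 0.69. KDM6B against KDM6A went from -0.02 to -0.90. Among the trios, KDM5C (57.7%) was above KDM5A (42.9%), by 0.82 before and 0.14 after removal. Between NSD2 and NSD3 and between KDM4B and KDM4C, the members of highest and lowest GC content, the order turned with the trend removed, from 0.13 to -0.27 and from 0.51 to -0.03. The middle members of these 2 trios went against the GC order, with NSD1 (47.2%, -1.09) below NSD3 (42.0%, -0.79) and KDM4A (50.7%, -0.53) below KDM4C (47.2%, -0.27).

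**Figure D4:**
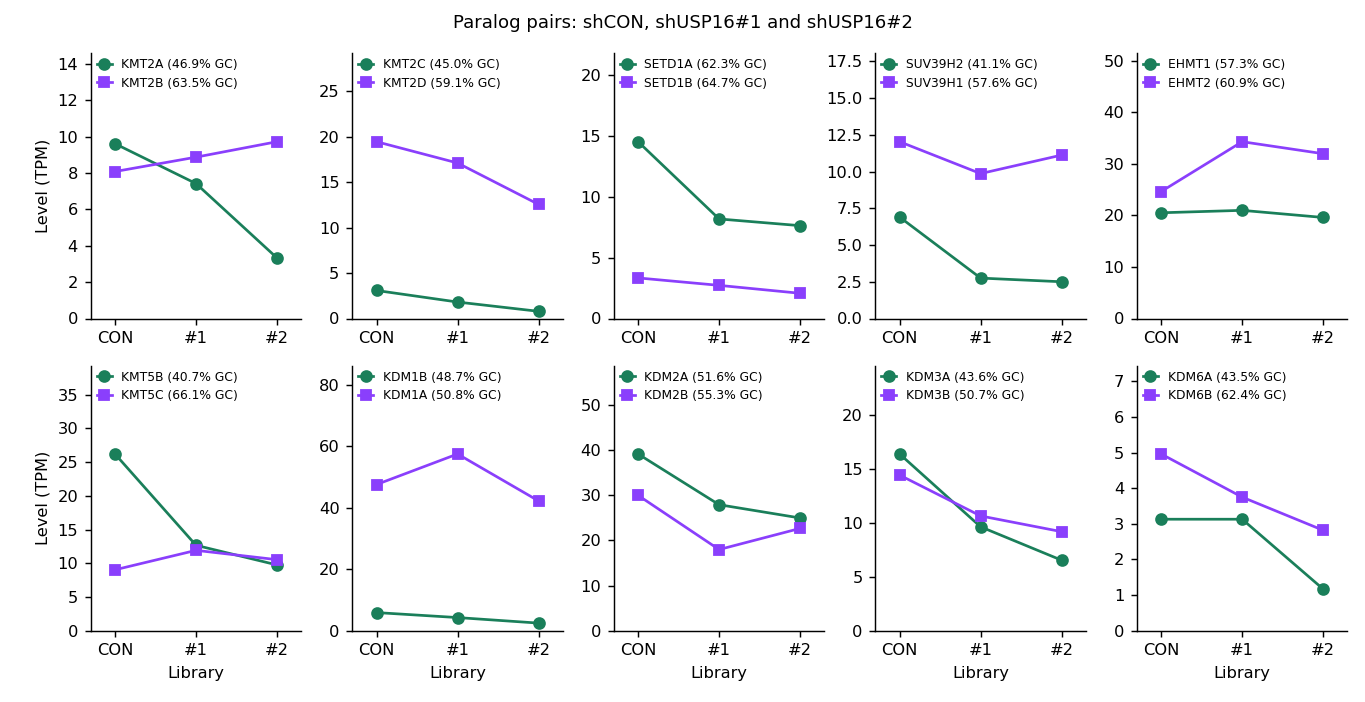
Level in TPM (vertical axis, from 0) of both members of each of 10 paralog pairs in the shCON (CON), shUSP16#1 (#1) and shUSP16#2 (#2) libraries, with the member of lower GC content as green circles and that of higher GC content as purple squares, and the GC content of the transcript in each legend. The lines of KMT2A and KMT2B and of KDM3A and KDM3B cross between shCON and shUSP16#1, and those of KMT5B and KMT5C meet, as the green member comes down.

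How far apart such paralogs are in base composition can be read from their coding sequences, and a stretch of 90 bases is shown for each of the 3 widest pairs, with G and C in capitals and the count of G and C close to the mean of the transcript. The stretches are from GENCODE release 29 (GRCh38), 5′ to 3′, and begin at coding base 208 in KMT5B, 4 in KMT5C, 442 in KMT2A, 481 in KMT2B, 13 in SUV39H2 and 16 in SUV39H1.
KMT5B: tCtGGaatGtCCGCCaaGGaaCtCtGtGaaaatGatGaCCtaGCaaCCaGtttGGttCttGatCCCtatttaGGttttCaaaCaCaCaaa
KMT5C: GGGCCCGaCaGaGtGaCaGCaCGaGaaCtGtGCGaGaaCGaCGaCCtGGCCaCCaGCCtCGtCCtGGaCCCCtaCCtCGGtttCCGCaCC
KMT2A: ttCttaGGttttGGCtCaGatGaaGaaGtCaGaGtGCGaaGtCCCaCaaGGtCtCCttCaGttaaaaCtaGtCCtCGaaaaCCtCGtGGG
KMT2B: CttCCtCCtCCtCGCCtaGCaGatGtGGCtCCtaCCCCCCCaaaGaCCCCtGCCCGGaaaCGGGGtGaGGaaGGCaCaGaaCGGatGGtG
SUV39H2: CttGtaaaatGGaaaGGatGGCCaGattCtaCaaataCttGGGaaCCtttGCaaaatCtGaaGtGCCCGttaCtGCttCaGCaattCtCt
SUV39H1: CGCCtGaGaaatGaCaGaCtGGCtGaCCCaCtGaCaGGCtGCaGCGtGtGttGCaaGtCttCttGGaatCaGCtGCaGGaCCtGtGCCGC

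The stretches of KMT5B and KMT5C turned out to overlap in the protein. Shifted by 2 codons, 28 codons could be set side by side, 22 of them code for the same amino acid, and 17 of those 22 are spelled differently. At the third base of these 22 codons G or C stands in 6 cases in KMT5B and in 19 in KMT5C. Over the whole coding sequence, G or C is at the third codon position in 39.7% of codons of KMT5B and 79.004% of KMT5C, in 34.9% of SUV39H2 and 76.4% of SUV39H1, and in 43.9% of KMT2A and 66.3% of KMT2B. These pairs were chosen for their gaps, so that the paralog with fewer such codons is the lower one follows from the choice, and the other pairs were not examined in this way.

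Across the 46 tested members the rank correlation of the difference with transcript GC content was 0.62 under shUSP16#1 and 0.75 under shUSP16#2. It was 0.54 and 0.63 over 13296 tested genes with a GC value, and 0.60 and 0.70 over the 11488 protein-coding ones among them. All genes of a library share its preparation, and genes are not independent replicates. For the 29 methyltransferases the correlations were 0.73 and 0.77 and for the 17 demethylases 0.22 and 0.59. The 10 members under 45% GC content had a median mean difference of -0.93, the 20 between 45% and 55% of -0.54 and the 16 above 55% of -0.04, and over all tested genes the medians of these ranges were -0.73, -0.30 and 0.13. In each range the median of the members was the lower one. The members above 55% ran from SETD1A (-0.80) to EHMT2 (0.41), and 7 of these 16 were lower under both hairpins, against 1200 of 4397 tested genes in that range.

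**Figure D5:**
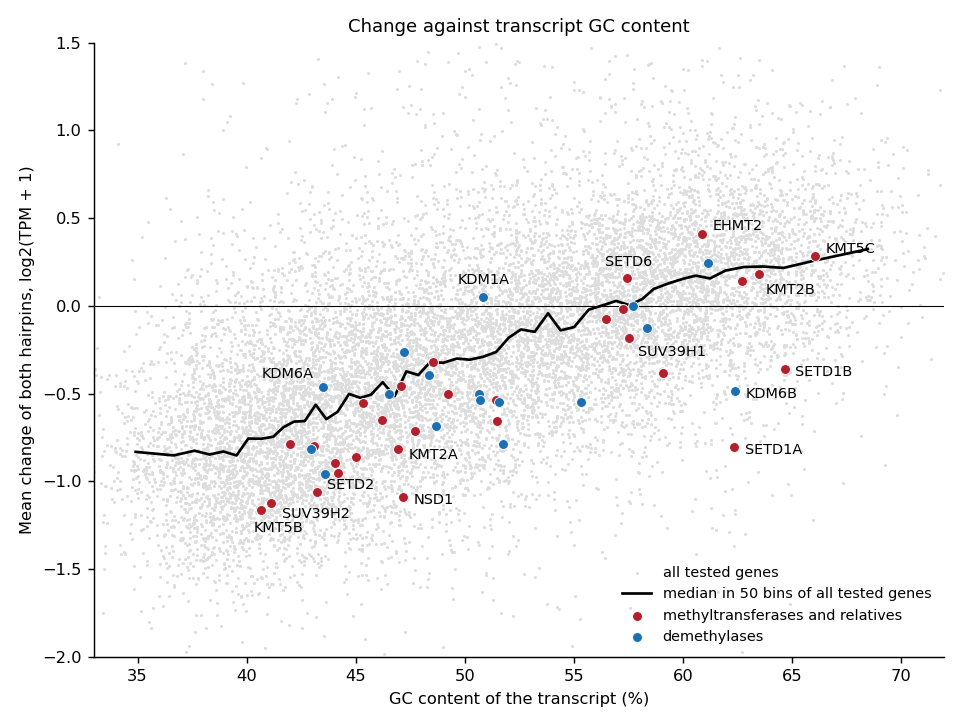
Mean difference of both hairpins as log2(TPM + 1) (vertical axis) against the GC content of the transcript in percent (horizontal axis) for the tested genes (grey), methyltransferases and relatives (red) and demethylases (blue), with the median of all tested genes in 50 bins of equal size as a black line and genes outside the axes not drawn. Most members lie under the line, SETD1A farthest, while KDM1A, KDM6A, SETD6, EHMT2 and KDM4C are among those above it.

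With the GC trend of all tested genes removed but their overall median kept, so that the tested genes still had a median of -0.27, 42 of the 46 members were lower under both hairpins (against 61.5% of the tested genes) and their median was -0.48. The means of the 5 members that had been higher under both were then -0.01 (EHMT2), -0.16 (KDM4B), -0.26 (KMT5C), -0.33 (KMT2B) and -0.36 (DOT1L). Centred as well, which reads each gene against genes of like GC content, they were 0.26, 0.11, 0.02, -0.06 and -0.08 in the same order, so the direction of these 5 depended on the scale. SETD1A, whose transcript has a GC content of 62.3%, then had the lowest mean, -1.27, and was the only member at least 2-fold lower under both, while SUV39H2 was at -0.66, KMT5B at -0.67 and NSD1 at -0.96. On the centred scale 30 of 46 members were lower under both (against 38.9%), with SETD1A at -0.99, KDM6B at -0.71 and NSD1 at -0.68 as the lowest and KDM1A at 0.33 as the highest. The H3K36 methyltransferases had a median of -0.41 on that scale and of -0.21 when the trend with length was removed as well, and for the H3K4 methyltransferases these values were -0.41 and -0.37. The H3K4 methyltransferases had the lowest class median in both cases, by very little in the first.

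The genes that work with these enzymes in complexes were described from a list of 38, of which 36 were tested. Of these, 27 were lower under both hairpins, 4 higher and 5 mixed, against 57.2% of all tested genes lower and 24.5% higher, and their medians were -0.39 and -0.63, against -0.17 and -0.37. All 4 subunits shared by the COMPASS complexes were lower under both, and DPY30, a small subunit needed for H3K4 trimethylation, was at 150.5, 115.1 and 82.8 TPM. The HP1 proteins, which bind methylated H3K9, were lower under both as well, and CBX3 (HP1 gamma) was at 160.7, 83.8 and 50.8 TPM (-0.93 and -1.64). In contrast HMG20B, a subunit of the LSD1-CoREST complex with a GC content of 63.8%, was at 82.2, 130.9 and 150.4 TPM (0.66 and 0.86). HDAC1 and HDAC2, the deacetylases of that complex, were unlike each other, at 124.2, 124.4 and 113.8 TPM for HDAC1 (GC content 49.4%) and at 75.8, 45.9 and 33.2 TPM for HDAC2 (38.2%). Other partners of high GC content went various ways. WIZ (64.6%) and HCFC1 (61.0%) were lower under both hairpins, MEN1 (61.0%) and MLLT1 (63.4%) were mixed, and RIOX1 (58.6%) was higher under both. JMJD1C, a relative of KDM3A outside the symbol rule, was at 26.3, 14.7 and 7.20 TPM (-0.79 and -1.73). The cofactors of DOT1L were mixed, with MLLT6 higher under both (11.02, 16.2 and 12.9 TPM) and MLLT3 lower (1.96, 0.75 and 1.17 TPM). RCOR2 and SETDB2 stayed under the minimum.

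By the protein domains that the deposited annotation gives, members with a PHD finger, a reader of histone tails, were lower under both hairpins in 13 of 16, with medians of -0.44 and -0.91, where 76.1% of all members and 57.2% of all tested genes were. Members with a SET domain were lower under both in 22 of 28 (-0.47 and -0.66) and those with a JmjC domain in 11 of 14 (-0.37 and -0.61). These shares lay near that of all members, and the domain groups overlap, so the counts are not separate observations. In the KEGG pathway of lysine degradation, which lists histone methyltransferases beside metabolic enzymes, 22 of the 53 tested genes are members, and 17 of these were lower under both hairpins, with medians of -0.49 and -0.82. The other 31 genes of the pathway had medians of -0.27 and -0.37, and 24 of them were lower under both.

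The E-box CACGTG, which reads the same on both strands, is the site bound by c-Myc with its partner MAX. It was looked for in the RefSeq promoters of GRCh38.p14, 250 bases before to 50 after each start, for which 45 of the 49 members had an entry. It stood in 7 of these (15.6%), against 10.3% of the promoters of 9522 tested genes and 7.43% of 27305 promoters in all. The boxes are shown in capitals within 30 bases of the gene's own strand, so that the members that carry one can be set beside their values.
EHMT2 (chr6:31897711-31897740, minus strand): ccctccctcgccCACGTGacccggggcggc
KDM4B (chr19:4968863-4968892, plus strand): gtcagcgggCACGTGggtgggcgccggcgt
KDM4C (chr9:6757898-6757927, plus strand): tgtttgtaagccCACGTGactcaccaagtg
KDM4C (chr9:6757930-6757959, plus strand): ggccccagcggtCACGTGacggcgcgcgcg
KDM6A (chrX:44873081-44873110, plus strand): gtcaacaaaggtCACGTGaggcgtgcgggc
KMT2D (chr12:49060898-49060927, minus strand): gggcttcgttccCACGTGtctgccctgctg
NSD1 (chr5:177131759-177131788, plus strand): aagaatagtagtCACGTGgccctcgagggc
SETD6 (chr16:58515439-58515468, plus strand): caaaacaggcacCACGTGgttccggcgccg

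The 7 genes with a box ran over nearly the whole span of the members, from NSD1 at a mean of -1.09 through KDM6A (-0.46), KMT2D (-0.38) and KDM4C (-0.27) to SETD6 (0.16), KDM4B (0.24) and EHMT2 (0.41). On the log2(TPM + 1) scale only NSD1 of these was past 2-fold under a hairpin. As a plain ratio of TPM, KDM6A was also past 2-fold under shUSP16#2, at 0.37 of shCON. A match is a description of the letters in this window and not a binding site, and no match says only that the letters are not there.

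Antisense and divergent transcripts named after members were low. ASH1L-AS1 was at 3.95, 7.76 and 3.84 TPM, and KMT2E-AS1 was at 1.24, 2.78 and 0.84 TPM, each highest under shUSP16#1. ASH1L and KMT2E were below shCON under both hairpins, and under shUSP16#2 their antisense transcripts were below it as well. Whether the counting used strand is not given in the sources used here, and without strand the reads of a gene and its antisense partner cannot be told apart. KDM4A-AS1, KDM2B-DT and KDM7A-DT were between 0.49 and 1.55 TPM in all libraries.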

How the data were processed

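RNA-seq was done on total RNA of PC3 cells, with 1 library for each of shCON, shUSP16#1 and shUSP16#2, and samples were grouped by their titles. TPM values in the 1 table deposited by the authors were made on a commercial platform and carry 2 decimals. The submitters' processing notes name CASAVA, HISAT2 and hg19, and the quantification tool and annotation are not given in the sources used here. The table also holds 3 repeated columns, which were not used, and gene lengths and annotation of domains and pathways, which were. Since TPM does not record sequencing depth, it is unknown here and values carry no interval. Of 60930 entries, the one with the highest mean was kept for each name (1211 left out), and blank names were replaced by the identifier.

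The shCON value of log2(TPM + 1) was subtracted from that of each hairpin library, for genes averaging 1 TPM or more. With 1 library per condition no test was made. To remove the GC trend, tested genes were put in 50 bins by GC content, each bin's median was taken off and the median over all bins together was restored. GC content, biotype, chromosome and coding sequences were from GENCODE release 29 (GRCh38), which matched all 49 members by gene identifier. GC content was that of the gene's transcript nearest in length to the deposited gene length. The lengths were not equal for every member, and for SETD1A they were 6451 and 5991 bases. Since the notes name hg19, no coordinate was taken from the table. The sense sequences of the hairpins were matched to GENCODE transcripts. The alternatives were a pseudocount of 0.1 TPM, centring each hairpin on the tested genes' median, rescaling to the sum of protein-coding genes, no minimum, a minimum of 5 TPM, the GC trend removed and each hairpin alone. The GC trend removed with centring, and 10 bins of GC content by 5 bins of length removed with and without centring, were chosen after seeing the data.

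The members, classes, pairs and lists were chosen with earlier results of these data known. The genes named are those at least 2-fold different in one direction under both hairpins, the highest and lowest of each class, both members of each pair, KDM2B and those under the minimum, with others where a class was described. The partner genes, the domains, the antisense transcripts and the third codon positions shown were named after their values were seen. Some marker genes are not reported here. Of the computations, only the log2 differences and the removal of the GC trend were tested on simulated data. In these no gene was weakly expressed in the control and the GC trend was linear. The work was done in Python 3.11.15 with pandas 2.3.3, numpy 2.4.6 and scipy 1.17.1, and matplotlib 3.10.9 drew the figures.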

Additional observations from a re-analysis of the deposited data

How the results depend on the processing

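No paired analysis was possible because only 1 library stands for a condition. A median is said to have moved where it shifted by more than the gap between the hairpins. The median difference of the members, -0.52, moved to -0.25 with centring, -0.21 with the GC trend removed and centred and -0.16 with GC and length trends removed and centred. For the methyltransferases (-0.55) these were -0.28, -0.23 and -0.18, and for the demethylases (-0.50) -0.23, -0.18 and -0.10. Centring alone takes the same amount off every gene of a hairpin, so its shift is equal for these medians whatever the members did. The number of members at least 2-fold lower under both hairpins, 1, was 2 (KMT5B and SUV39H2) with a pseudocount of 0.1 TPM and 2 after rescaling to protein-coding genes, and 0 with centring, where 5 TPM were required, after the GC trend was removed and centred, and with GC and length trends removed and centred. With the GC trend removed it was 1, but SETD1A in place of SUV39H2. From 1 hairpin alone the medians ran from -0.61 to -0.41 for the members, -0.62 to -0.45 for the methyltransferases and -0.60 to -0.33 for the demethylases, and the number at least 2-fold lower ran from 1 (without shUSP16#2) to 11 (without shUSP16#1). The number at least 2-fold higher was 0 in every alternative run. Single members took the other sign in 7 of 46 with the GC trend removed and in 5 of 46 with centring. The unknown depth limits the low genes most, such as KMT2C, KDM8 and KDM4D.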

Other observations

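Most of the members that were higher under both hairpins lie on 1 chromosome. All 4 tested members on chromosome 19, DOT1L, KDM4B, KMT5C and KMT2B, were among them, and EHMT2 on chromosome 6 was the other. Of the 920 tested genes on chromosome 19, 46.8% were higher under both hairpins, the highest share of any chromosome, with a median GC content of 60.3% and a median mean difference of 0.07. On chromosome 4, which holds NSD2 and SETD7, 9.52% of 420 genes were higher under both, with a median GC content of 43.3% and a median mean difference of -0.60. The part of GC content in this was not tested.

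The order of the members by level changed little at the top and more below it. SMYD2, KDM1A, SMYD5 and KDM2A were the 4 most abundant in shCON, and KDM1A, SMYD5, SMYD2 and EHMT2 were under shUSP16#2. KDM4B went from rank 23 in shCON to ranks 14 and 10, and KMT2B from 32 to 25 and 21.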
